A study of Rattus norvegicus with 4 samples.

Results

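The mitosis genes are 38 genes whose products build the spindle, hold and move the chromosomes, time the exit from mitosis and divide the cell. They were taken by gene symbol from the table of counts, with the condition of at least 40 counts summed over the libraries, and all 38 met it, among 12228 genes that met it and 34034 that were listed. The summed counts ran from 63 for Anln and 115 for Cdc25c, the members nearest that minimum, to 3634 for Bub3, and no member lay below it. The study followed rat mesenchymal stem cells, the stromal precursors of bone, cartilage and fat cells, from femurs, after 1 day in medium that induces bone formation, and asked how senescent cells respond there to trichostatin A (TSA) and phenamil methanesulfonate. There were 4 libraries, 1 per condition, so no difference has a replicate check. The young control held young cells and the senescent control held senescent cells, both with vehicle. The TSA library held senescent cells given TSA, an inhibitor of histone deacetylases, for 24 h. The combined library held senescent cells given TSA and phenamil, an amiloride derivative known for enhancing bone morphogenetic protein signalling, for the same 24 h. The design text names benzyl ether where the labels and title name phenamil, and the labels are followed. The sample titles of both treated libraries also read "extracs treat", a wording that those titles do not explain. All of the cells were in osteogenic medium, and none received phenamil alone. Not given in the sources used here are the strain, sex and age of the rats, the doses, and how senescence was reached.

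Entry into mitosis is driven by the kinase CDK1 with cyclins A2 and B, switched on by CDC25 phosphatases, and the kinetochores of the condensed chromosomes are then caught by spindle microtubules. The spindle checkpoint holds the anaphase-promoting complex back until all chromosomes are attached, after which securin and the cyclins are destroyed, the chromatids part and a contractile ring cleaves the cell. The mRNA of most of these genes is highest in G2 and mitosis, so it serves as a rough reading of the cycling cells in a culture. Senescent cells have left the cell cycle, and a loss of these transcripts is a textbook feature of senescence. In bulk RNA, fewer cells of a type and less RNA per cell cannot be told apart.

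Beside their function, the members shared promoter elements that played no role in their choice. Genes of G2 and mitosis are known for a cell cycle genes homology region (CHR), which is bound by the MuvB complexes that repress them in resting cells and activate them in G2, and for CCAAT boxes, which are bound by NF-Y. RefSeq windows of the assembly GRCr8 ran from 250 bases before to 50 bases after each annotated start. They were matched by gene identifier for 33 of the 38 members, with none for Ccna2, Aurkb, Incenp, Tpx2 and Ube2c. A CHR, searched as TTTGAA or TTTAAA on both strands, was in the windows of 32 of 33 members (97.0%), against 20.2% of the 9856 genes with at least 40 counts and a window and 29.6% of all 27456 genes with one. In 31 members (93.9%) a CHR lay within 100 bases before the start or in the bases after it, against 8.74% of the counted genes, and 26 members (78.8%) held a CHR before the start, against 18.3%. CCAAT on either strand was found in 25 members (75.8%), against 39.5%, and 20 members (60.6%) held 2 or more copies, against 14.4%. Both elements stood together in 24 members (72.7%), against 8.23%. TTTGAA alone was in 25 members (75.8%) and 12.7% of counted genes, and 25 of its 30 matches read along the gene's own strand, or 83.3%, against 53.2% of 1522 matches in counted genes. TTTAAA, which reads the same on both strands, was in 12 members (36.4%) and 9.63% of counted genes. These matches are letters in a window and not measured sites of binding, and neither the libraries nor the counts bear on which were bound.

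The 150 bases before the start are printed for 5 members, 5′ to 3′ on the gene's strand, with CHR and CCAAT matches of either strand in capitals. Plk1 (chr1:186147508-186147657, plus strand), Cenpe (chr2:226310907-226311056, plus strand) and Nusap1 (chr3:127057145-127057294, plus strand) are shown because their mRNA was lower in the TSA library than in the young control and higher in the combined library than with TSA. Cenpf, Kif4a and Top2a met the same condition and have windows, but are not printed. Ccnb1 (chr2:33655226-33655375, minus strand) is shown because it was lower in the senescent control than in the young control. Bub3 (chr1:195760382-195760531, plus strand) is shown because it is the one member with no CHR in any window; Kif2c has a pair of windows, of which 1 holds none.
Plk1: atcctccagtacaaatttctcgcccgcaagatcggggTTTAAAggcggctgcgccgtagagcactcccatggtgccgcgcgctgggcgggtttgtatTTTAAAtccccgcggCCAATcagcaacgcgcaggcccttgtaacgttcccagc
Cenpe: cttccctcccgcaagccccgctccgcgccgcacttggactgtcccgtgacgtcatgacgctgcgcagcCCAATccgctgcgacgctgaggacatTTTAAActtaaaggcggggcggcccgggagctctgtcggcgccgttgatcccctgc
Nusap1: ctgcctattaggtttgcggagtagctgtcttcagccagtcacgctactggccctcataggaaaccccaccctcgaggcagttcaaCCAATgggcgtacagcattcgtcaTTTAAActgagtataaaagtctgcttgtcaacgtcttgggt
Ccnb1: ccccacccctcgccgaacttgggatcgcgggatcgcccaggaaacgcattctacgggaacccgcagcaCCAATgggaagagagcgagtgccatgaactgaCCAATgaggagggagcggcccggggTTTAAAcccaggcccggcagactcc
Bub3: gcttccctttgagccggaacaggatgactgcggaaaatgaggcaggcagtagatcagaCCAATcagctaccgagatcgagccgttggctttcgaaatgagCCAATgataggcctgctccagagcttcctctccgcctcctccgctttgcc
Plk1 carries a pair of CHR matches and 1 CCAAT in this stretch, Cenpe and Nusap1 carry 1 of each, and Ccnb1 carries a pair of CCAAT upstream of its CHR. Every CHR in these printed stretches reads TTTAAA, which fewer members hold than TTTGAA. Over all members with a window there were 44 CHR matches, with a median first base at -38 from the start, and 62 CCAAT matches, with a median at -102.5, as the plot of promoter elements shows.

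**Figure D1:**
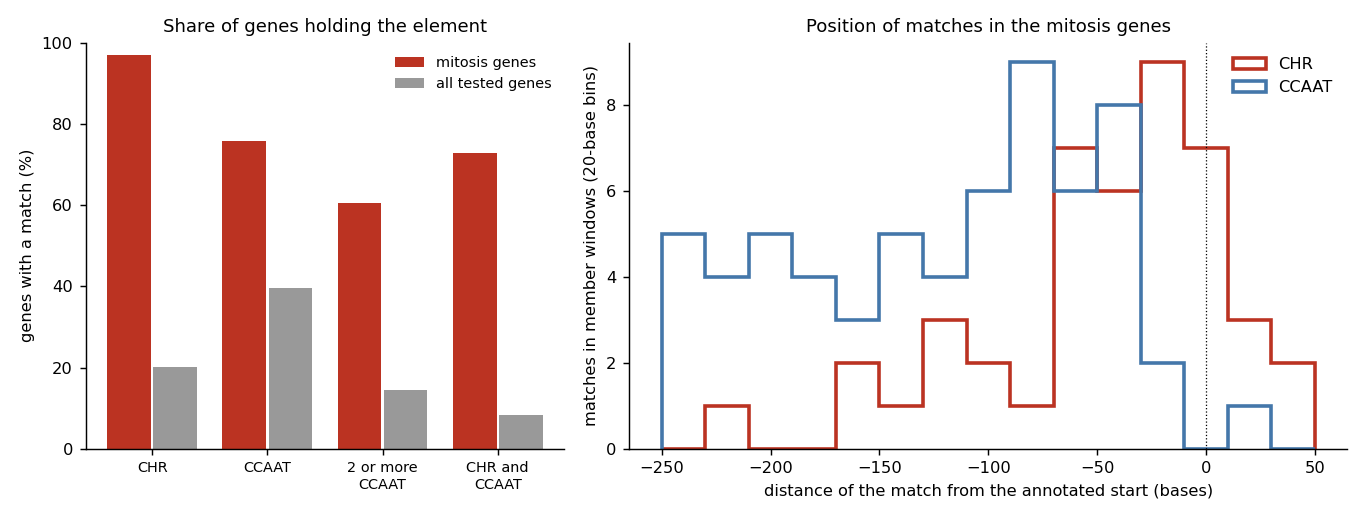
Left, percentage of genes whose promoter window holds a CHR, CCAAT, 2 or more CCAAT, or both elements, for the 33 mitosis genes with a window and for all 9856 counted genes with one; a CHR was in 97.0% against 20.2%. Right, number of matches in the members' windows by distance in bases from the annotated start (0), in bins of 20 bases, for CHR and CCAAT.

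The libraries held 9873894 to 11024227 counts on 16277 to 16547 genes. Mitochondrially encoded mRNA took 5.47%, 5.66%, 6.02% and 6.85% and ribosomal protein genes 7.55%, 7.995%, 8.91% and 8.14% of the counts of the young control, senescent control, TSA and combined libraries. These shares differ between the libraries compared, and their part in the results was not tested; the ratios below were also computed with those genes left out of the scaling. All 12 mesenchymal marker genes were detected in each library, with Thy1 at 7752 to 8431 counts and summed shares of 4.77% to 5.59%. Of 14 blood cell markers, 7 to 13 were at 0 per library and Ptprc was at 0, 0, 0 and 3 counts, while their sum of 57, 69, 102 and 102 counts was mostly Cd14. The 6 endothelial markers summed to at most 4 counts and the 4 epithelial ones to at most 6, with Pecam1, Vwf and Krt14 at 0.

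Scaling between libraries used trimmed means of M-values (TMM), and a ratio is given with its 95% exact interval, which covers counting error only. A gene is called higher or lower where that interval excludes 1, and a call therefore describes the libraries and not the conditions. The summed level of the mitosis genes was nearly the same in senescent and young cells and somewhat lower with TSA. Summed over the members, the young control held 11174 counts and the senescent control 11188, against 9527 with TSA and 10635 with TSA plus phenamil. These sums were 0.102% (0.101 to 0.104, exact binomial) of the young library, 0.101% (0.0996 to 0.103) of the senescent library, 0.0965% (0.0946 to 0.0984) of the TSA library and 0.0992% (0.0973 to 0.101) of the combined library. The sum in the senescent control was 1.01 (0.984 to 1.04) times that of the young control. With TSA it was 0.948 (0.922 to 0.974) times the senescent control, and with both compounds 0.998 (0.972 to 1.02) times. The combined library had 1.05 (1.02 to 1.08) times the sum of the TSA library. The TSA library therefore held the lowest scaled sum, with 963 CPM (counts per 1000000 of the scaled library size) against 1005 (young), 1016 (senescent) and 1013 (combined). A separate list of other mitosis genes, described below, was not lower with TSA. Its sum over all 56 genes listed was 1.02 (0.988 to 1.06) times the senescent control and 1.05 (1.01 to 1.09) times the young control.

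The senescent and young libraries differed in 10 of the 38 mitosis genes, in equal numbers each way. Ccnb2, Mad2l1, Kif2c, Cdca8 and Prc1 were higher in the senescent control, and Aurkb, Kif4a, Ccnb1, Pttg1 and Top2a were lower. This was 26.3% of the members, against 34.9% of all genes compared, with 18.4% of all genes higher and 16.5% lower. The median log2 ratio of the members was 0.03, and that of all genes was 0.01. With scaling by total counts, 4 members were higher and 7 lower, and over all genes 1955 were higher and 2352 lower. The members' median was then -0.0041 and that of all genes -0.02.

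The TSA library differed from the senescent control in 11 members, with 4 higher and 7 lower. Aurkb, Cdc25c, Kif11 and Ccna2 were higher, and Anln, Nuf2, Plk1, Mki67, Cdca8, Cenpf and Cenpe were lower. This was 28.9% of the members, and over all genes 30.5% were called, 16.0% higher and 14.5% lower. The median of the members was -0.15 on the log2 scale and that of all genes 0.00, and 25 of 38 ratios lay below 1. Aurkb was the single member whose whole interval lay beyond 1.5-fold in any comparison. It did so in TSA over senescent, in the higher direction, as did 0.548% of all genes in that comparison. In either direction, 1.35% of all genes passed that size for senescent over young, 1.07% for TSA over senescent, 1.09% for the combined library over senescent, 1.85% for it over TSA, 3.22% for TSA over young and 1.05% for the combined library over young.

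The library with TSA plus phenamil differed from the senescent control in 12 members, 6 in each direction. Kif11, Nusap1, Pttg1, Cenpe, Ndc80 and Top2a were higher, and Ttk, Kif2c, Nuf2, Cdc20, Birc5 and Bub3 were lower. This was 31.6% of the members against 31.7% of all genes, of which 15.9% were higher and 15.8% lower. The members' median was -0.11 and that of all genes 0.00. With scaling by total counts, 5 members were higher and 9 lower, and over all genes 1619 were higher and 2297 lower, in place of 1948 and 1931.

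The most calls among comparisons of senescent cells, 17 of 38, came between the combined library and the TSA library. Bub1, Nusap1, Cenpe, Kif4a, Tpx2, Plk1, Cenpf, Ndc80, Top2a and Cdca8 were higher with phenamil added, and Cdc25c, Aurkb, Ccna2, Spc25, Ttk, Birc5 and Bub3 were lower. This was 44.7% of the members against 33.7% of all genes, of which 16.4% were higher and 17.4% lower. Among the 9595 genes whose summed counts lay within the members' range, 14.6% were higher and 14.7% lower. The median of the members was -0.05. With scaling by total counts, 8 members were higher and 8 lower, and over all genes 1658 were higher and 2528 lower, in place of 2001 and 2123. Of the 7 members lower with TSA than in the senescent control, Plk1, Cenpe, Cenpf and Cdca8 were among those higher in the combined library than with TSA; both comparisons hold the TSA library, so its counts enter each of these ratios.

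Against the young control, TSA gave 5 members higher (Aurkb, Cdc25c, Spc25, Ccna2 and Kif23) and 10 lower (Anln, Kif4a, Plk1, Mki67, Ect2, Nusap1, Top2a, Tpx2, Cenpf and Cenpe). This was 39.5% of the members against 41.3% of all genes, of which 21.5% were higher and 19.8% lower. The combined library had 3 members higher than the young control (Ndc80, Cenpe and Prc1) and 6 lower (Ect2, Ttk, Ccnb1, Birc5, Mki67 and Plk1), or 23.7% against 31.9% of all genes, with 16.5% higher and 15.3% lower. In that comparison 2022 genes of all were higher and 1876 lower, and with scaling by total counts 1414 and 2628. The 6 comparisons share libraries and are not independent of each other. The heat map of levels shows the mixture: 13 members had their highest level in the senescent control, 9 with TSA, 9 with both compounds and 7 in the young control, and the lowest level was in the combined library for 13 and in the TSA library for 12. Of all genes, 21.5% were highest in the senescent control, 28.5% with TSA, 23.0% with both compounds and 27.0% in the young control, and 22.5% were lowest in the combined library and 28.0% in the TSA library.

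No replicate measures how far cultures vary. A coefficient of variation of 0.1 between cultures was then assumed, with a log-normal interval in place of the exact one. Of the 74 calls, 21, in 14 members, remained. Between the controls these were Ccnb2 and Mad2l1. For TSA against the senescent control they were Aurkb, Cdc25c and Anln, and for the combined library against it Kif11, Nusap1 and Ttk. Between the treated libraries they were Aurkb, Cdc25c, Bub1, Cenpe and Nusap1. For TSA against the young control they were Aurkb, Cdc25c, Plk1, Kif4a, Anln and Mki67, and for the combined library against it Ttk and Ect2. All other calls of the members ended at that assumed spread. For Anln, at 6 counts with TSA, the log-normal interval for TSA over senescent was not wider than the exact one. The rule could therefore not end that Anln call. Over all genes the same rule called 10.4% for senescent over young, 8.64% for TSA over senescent, 8.42% for the combined library over senescent, 10.3% for it over TSA, 16.2% for TSA over young and 8.64% for the combined library over young.

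**Figure D2:**
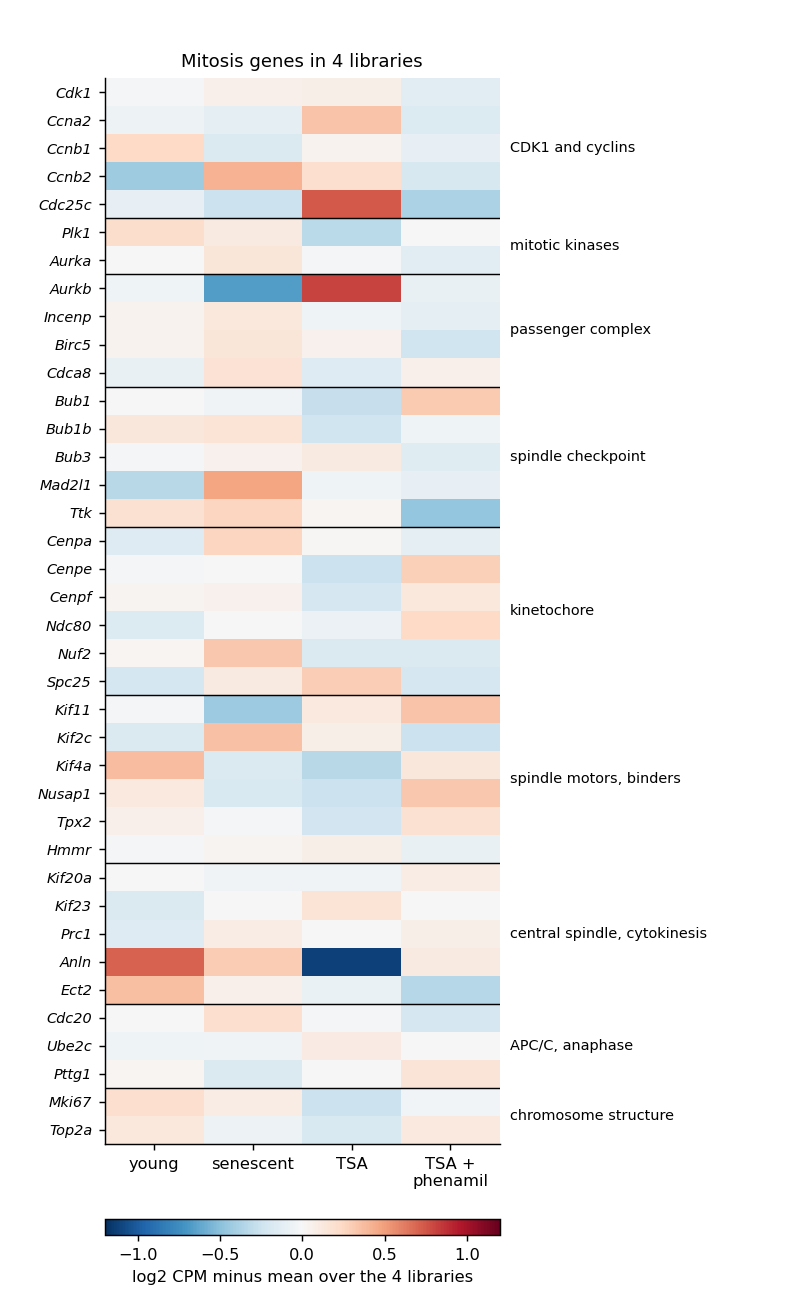
Heat map of the 38 mitosis genes (vertical, by role) in the 4 libraries (horizontal); colour is log2 CPM minus the gene's mean over the 4 libraries. Neither control nor treatment is uniformly high or low: 13 members peak in the senescent control, as do 21.5% of all genes, and 13 are lowest in the combined library, as are 22.5% of all genes.

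**Figure D3:**
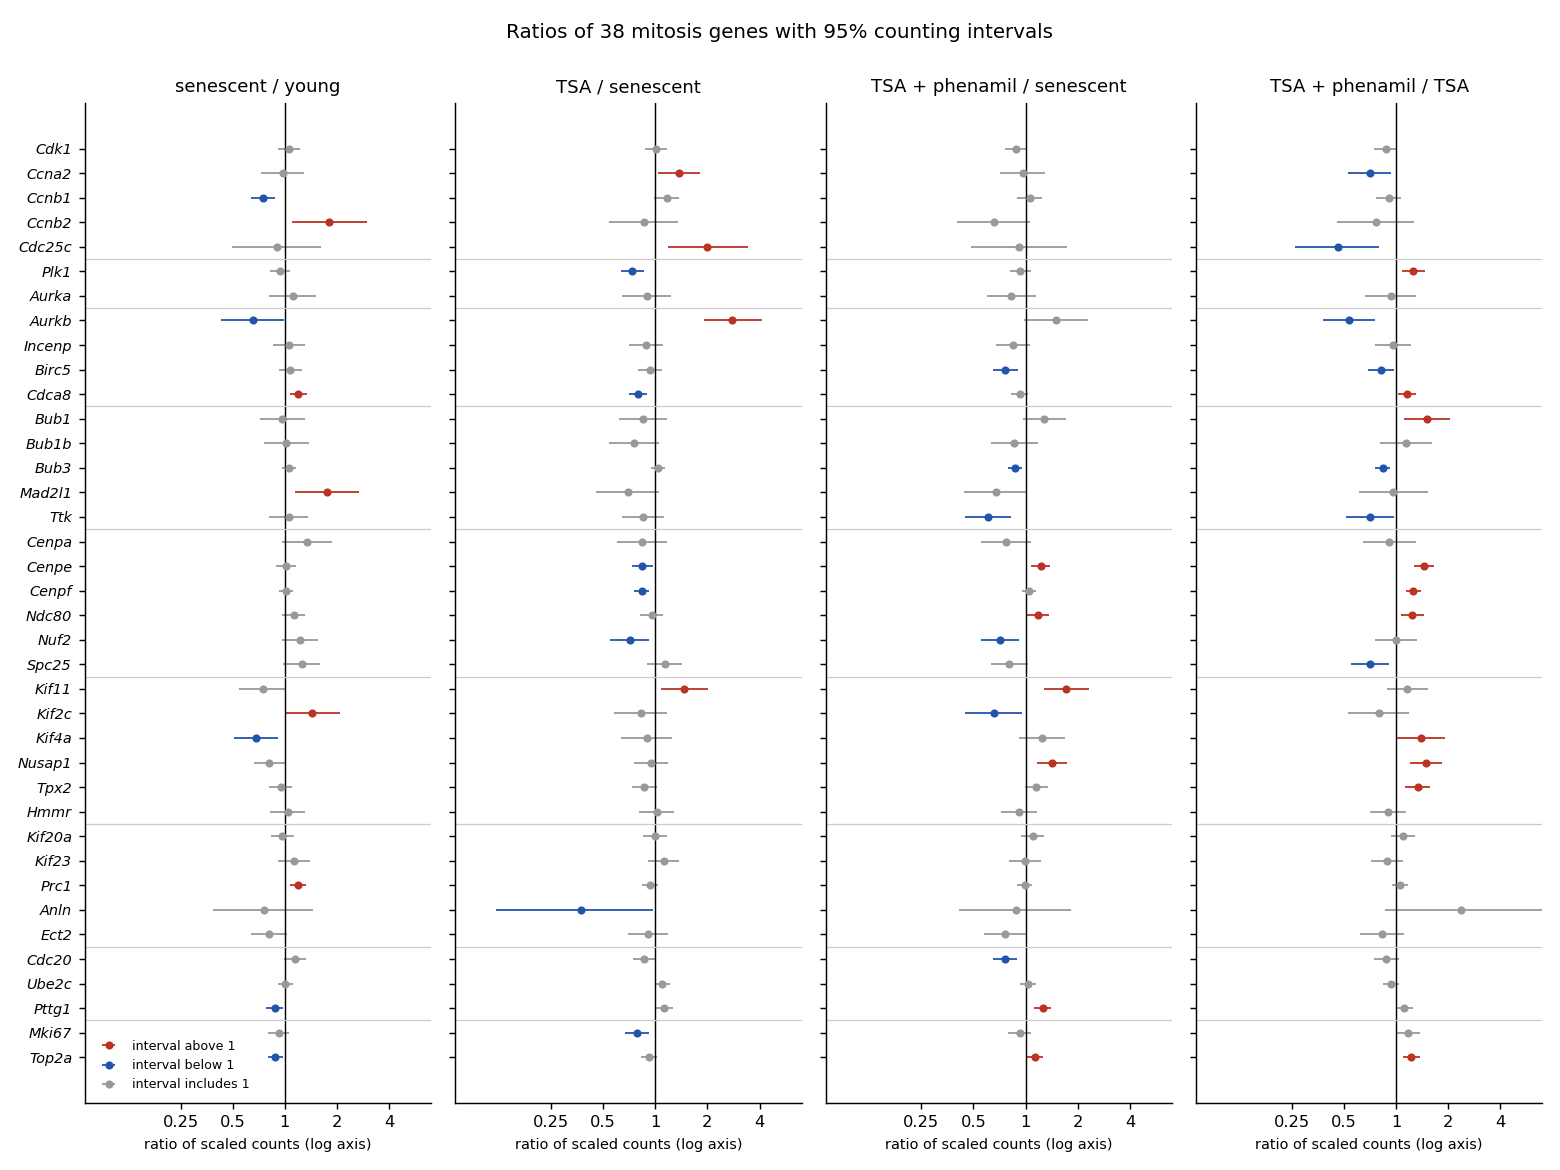
Ratio of scaled counts (horizontal, log axis) of each mitosis gene (vertical) in 4 comparisons, with 95% counting intervals as bars; red points have intervals above 1 and blue points below 1. Aurkb at 2.78 (1.91 to 4.12) in TSA over senescent stands farthest to the right, and Anln at 0.371 (0.121 to 0.976) farthest to the left, with a wide interval.

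In the paragraphs that follow, counts are given in the order young control, senescent control, TSA and combined library. Members of the mitotic engine, CDK1 and its partners, had summed counts of 906, 844, 848 and 751, and together stood at 1.12 (1.02 to 1.23) with TSA over the senescent control and 0.835 (0.756 to 0.922) in the combined library over TSA. Ccnb1 (cyclin B1, the partner that takes CDK1 into mitosis) had 369, 275, 287 and 276 counts. The young control was the highest, with 0.752 (0.641 to 0.882) for senescent over young and 0.792 (0.676 to 0.929) for the combined library over young, while TSA over young, 0.874 (0.746 to 1.02), had an interval that includes 1. Ccna2 (cyclin A2, active in S phase and G2) had 101, 97, 119 and 89 counts, highest with TSA at 1.37 (1.04 to 1.80) of the senescent control. It was lower in the combined library than with TSA, at 0.705 (0.530 to 0.936). Its excess with TSA over the young control, 1.32 (1.01 to 1.74), ended under the scalings by DESeq2 and by total counts. Cdc25c, the phosphatase that activates CDK1, had 27, 24, 43 and 21 counts. The TSA library alone was high, with 1.99 (1.18 to 3.44) over the senescent control, 1.79 (1.08 to 3.01) over the young control and 0.460 (0.260 to 0.793) for the combined library over TSA. Cdk1 itself had 335 to 400 counts and was called in no comparison. Ccnb2 (cyclin B2) had 27 to 48 counts and was higher in the senescent control than in the young control, at 1.79 (1.10 to 2.99).

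Plk1, the polo-like kinase of spindle assembly and mitotic entry, had 471, 437, 290 and 387 counts. It was lowest with TSA, and the ratio of the controls, 0.937 (0.820 to 1.07), had an interval that includes 1. TSA stood at 0.739 (0.635 to 0.859) of the senescent control and 0.692 (0.596 to 0.803) of the young control. The combined library lay between TSA and the controls, at 1.26 (1.08 to 1.47) of the TSA library and 0.930 (0.809 to 1.07) of the senescent control. Aurka, the Aurora kinase of the spindle poles, had 71 to 90 counts and was called in no comparison.

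In the chromosomal passenger complex, which corrects faulty attachments and later directs cleavage, calls went in both directions. At the spread between cultures assumed above, only the Aurkb calls that involve the TSA library remained. The calls of Cdca8 and Birc5 all ended there, so a divergence between subunits is not established. Aurkb, the Aurora kinase of the complex, had 62, 40, 100 and 57 counts. It was lowest in the senescent control, at 0.651 (0.426 to 0.985) of the young control, and highest with TSA, at 2.78 (1.91 to 4.12) of the senescent control and 1.81 (1.31 to 2.53) of the young control. In the combined library it was 0.537 (0.381 to 0.751) of the TSA level, and its ratios to the controls, 1.496 (0.981 to 2.30) over senescent and 0.974 (0.668 to 1.42) over young, had intervals that include 1. Cdca8 (borealin, which brings the complex to the centromere) had 548, 650, 466 and 572 counts. It differed in the other direction, highest in the senescent control at 1.197 (1.07 to 1.34) of young and low with TSA at 0.798 (0.707 to 0.900) of senescent. It was 1.16 (1.02 to 1.31) in the combined library over TSA, a call that ended under scaling by total counts. Birc5 (survivin, which also belongs to the complex) had 312, 333, 279 and 242 counts. The combined library was the lowest, at 0.763 (0.644 to 0.903) of the senescent control, 0.818 (0.686 to 0.975) of TSA and 0.822 (0.692 to 0.975) of the young control. The latter ratios, against TSA and against young, no longer excluded 1 when all libraries were thinned to the smallest total. Incenp, the scaffold of the complex, had 142 to 179 counts and was called in no comparison. Summed, the complex had 1093, 1202, 987 and 1016 counts, with 1.11 (1.02 to 1.21) for senescent over young and 0.914 (0.839 to 0.995) for TSA over senescent; Cdca8 and Birc5 give most of these counts.

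**Figure D4:**
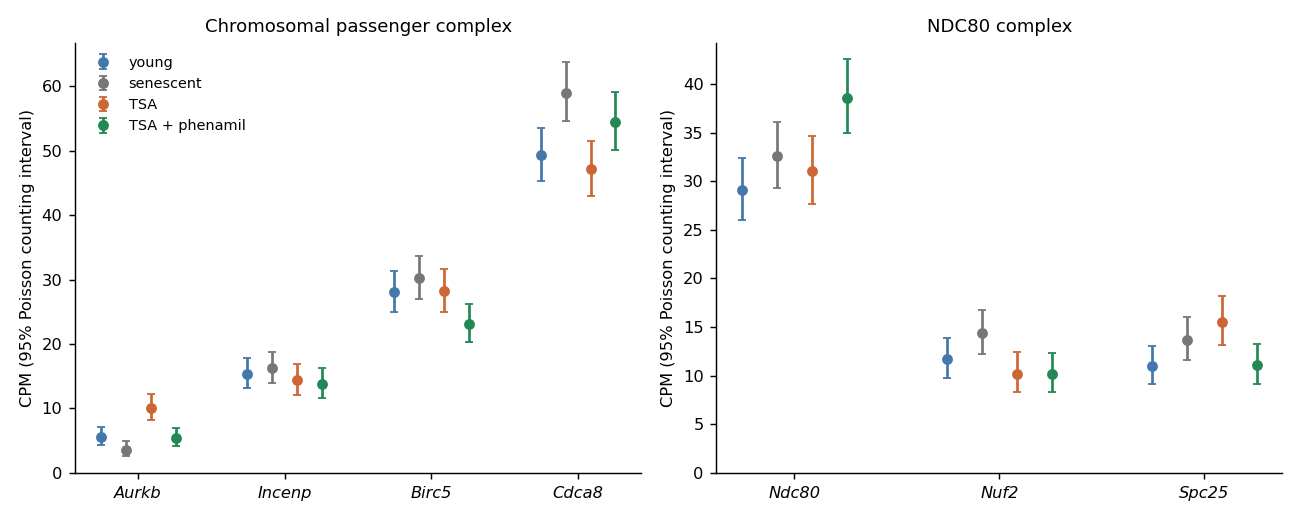
Scaled level (CPM, vertical, from 0) of the subunits of the chromosomal passenger complex (left) and of 3 subunits of the NDC80 complex (right) in the 4 libraries, with 95% Poisson counting intervals as bars. Aurkb is highest with TSA (100 counts), where Cdca8 is lowest (466 counts), and Ndc80 is highest in the combined library (405 counts) while Nuf2 is highest in the senescent control (158 counts).

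Among the spindle checkpoint genes, Bub3, which carries checkpoint proteins to kinetochores, had 935, 977, 912 and 810 counts. It was lowest in the combined library, at 0.870 (0.792 to 0.956) of the senescent control and 0.837 (0.761 to 0.922) of TSA. Ttk (MPS1, the kinase that starts the checkpoint) had 118, 123, 94 and 71 counts. It too was lowest in the combined library, at 0.606 (0.446 to 0.818) of the senescent control, 0.712 (0.516 to 0.980) of TSA and 0.638 (0.468 to 0.863) of the young control. Bub1, the kinase that recruits checkpoint proteins, went the other way with 72 counts with TSA and 115 in the combined library, at 1.51 (1.11 to 2.05). Mad2l1 (MAD2, the inhibitor of the anaphase-promoting complex) had 37 counts in the young control and 64 in the senescent control, at 1.75 (1.15 to 2.69). Bub1b (BUBR1, a part of the checkpoint complex) had 64 to 94 counts and was called in no comparison. The 5 genes summed to 1281, 1352, 1182 and 1114 counts, and the combined library stood at 0.865 (0.798 to 0.937) of the senescent control. Bub3 gives most of these counts.

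The centromere and kinetochore genes summed to 2032, 2153, 1681 and 2166 counts, lowest with TSA at 0.869 (0.815 to 0.927) of the senescent control and 1.21 (1.14 to 1.30) in the combined library over TSA. Cenpf and Cenpe give most of these counts. Cenpe, a kinetochore motor that aligns chromosomes, had 461, 462, 350 and 539 counts. The controls differed by 1 count, TSA was lower at 0.843 (0.732 to 0.971) of senescent and 0.853 (0.740 to 0.982) of young, and the combined library was the highest at 1.45 (1.27 to 1.67) of TSA, 1.22 (1.08 to 1.39) of senescent and 1.24 (1.09 to 1.41) of young. Cenpf, a large protein of the outer kinetochore, had 928, 933, 701 and 933 counts. The TSA library was the lowest, at 0.836 (0.757 to 0.924) of senescent and 0.849 (0.768 to 0.937) of young, with 1.25 (1.14 to 1.39) for the combined library over TSA. In the NDC80 complex, which grips the microtubule end, the calls differed between subunits. None of the calls of Ndc80, Nuf2 and Spc25 remained at the spread between cultures assumed above, so they describe these libraries only. Ndc80 had 323, 359, 307 and 405 counts and was highest in the combined library, at 1.18 (1.02 to 1.37) of senescent, 1.24 (1.07 to 1.45) of TSA and 1.33 (1.14 to 1.54) of young. Nuf2, its partner in the same coiled coil, had 130, 158, 101 and 107 counts and was lower in both treated libraries, at 0.712 (0.549 to 0.919) of senescent with TSA and 0.711 (0.551 to 0.914) with both compounds. Spc25, from the other end of the complex, had 122, 151, 154 and 116 counts, with 1.42 (1.11 to 1.81) for TSA over young and 0.710 (0.553 to 0.910) for the combined library over TSA. The gene span of Spc25 overlaps that of Nostrin, with 554 counts, in the annotation. Shared exons were not examined and strand use in counting is not known, so it is uncertain whether their reads were mixed. Cenpa, the histone variant that marks the centromere, had 66 to 90 counts and was called in no comparison.

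The spindle motors and microtubule-binding proteins summed to 995, 894, 770 and 1000 counts, with 0.907 (0.828 to 0.994) for senescent over young, 1.17 (1.07 to 1.29) for the combined library over senescent and 1.22 (1.11 to 1.35) over TSA. Kif11 (Eg5, the motor that pushes the poles apart) had 100, 74, 98 and 121 counts. It was lowest in the senescent control, at 1.47 (1.08 to 2.02) with TSA and 1.72 (1.27 to 2.32) with both compounds over that control. Kif4a, a chromosome-bound motor that also shapes the central spindle, had 121, 82, 66 and 97 counts. The young control was the highest, at 0.684 (0.510 to 0.913) for senescent and 0.613 (0.447 to 0.834) for TSA over young. In the combined library it was 1.39 (1.003 to 1.92) of TSA, which ended under scaling by total counts and under thinning. Kif2c (MCAK, which takes microtubules apart at centromeres) had 54, 77, 57 and 48 counts and peaked in the senescent control. Its ratio of 1.44 (1.003 to 2.08) to young ended under all 3 other scalings tried, and the combined library was 0.654 (0.447 to 0.950) of senescent. Nusap1, which bundles microtubules near chromosomes, had 211, 170, 145 and 230 counts. It was highest in the combined library, at 1.42 (1.16 to 1.74) of senescent and 1.496 (1.21 to 1.85) of TSA, and lowest with TSA, at 0.772 (0.621 to 0.959) of young. Tpx2, which seeds microtubules and activates Aurora A, had 355, 333, 259 and 366 counts, with 0.820 (0.696 to 0.965) for TSA over young and 1.33 (1.13 to 1.57) for the combined library over TSA. Hmmr (RHAMM, a hyaluronan receptor that also binds the spindle) had 138 to 158 counts and was called in no comparison. By gene span, Kif11 overlaps Ide (1363 counts), Kif4a overlaps Pdzd11 (1381 counts) and Nusap1 overlaps Ndufaf1 (195 counts). Shared exons were not examined, so the values of these members are uncertain to that extent. The same holds for Kif20a, which overlaps Cdc23 (1336 counts), and for Aurka, which overlaps Fam210b (299 counts). In all, the spans of 13 members overlap another annotated gene.

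Of the genes of the central spindle and cleavage, Prc1, which bundles the antiparallel microtubules of the midzone, had 667, 786, 660 and 739 counts. The senescent control was the highest, at 1.19 (1.07 to 1.32) of young, and the combined library was 1.17 (1.06 to 1.31) of young. Ect2, the exchange factor that switches on RhoA for the contractile ring, had 157, 126, 103 and 91 counts. The young control was the highest, with 0.737 (0.569 to 0.951) for TSA and 0.614 (0.469 to 0.800) for the combined library over young, while senescent over young was 0.810 (0.636 to 1.03). Anln (anillin, the scaffold of the ring) had 24, 18, 6 and 15 counts. With TSA it stood at 0.371 (0.121 to 0.976) of senescent, which ended when the libraries were thinned, and 0.281 (0.0939 to 0.705) of young; at 6 counts the interval is wide. Kif23 (the kinesin of centralspindlin) had 167 to 188 counts and was higher with TSA than in the young control, at 1.27 (1.02 to 1.57), and Kif20a (MKLP2, another kinesin of the central spindle) had 293 to 341 counts and was called in no comparison.

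Of the genes of mitotic exit, Pttg1 (securin, which guards separase until anaphase) had 654, 565, 571 and 677 counts. It was lower in the senescent control, at 0.872 (0.778 to 0.977) of young, and higher in the combined library, at 1.26 (1.12 to 1.41) of senescent. Cdc20, the activator of the anaphase-promoting complex, had 288 to 398 counts, with 0.760 (0.650 to 0.886) for the combined library over senescent. Ube2c, the enzyme that hands ubiquitin to that complex, had 707 to 722 counts and was called in no comparison.

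The marker of proliferation Mki67 (Ki-67, which coats mitotic chromosomes) had 428, 390, 276 and 343 counts. It was lowest with TSA, at 0.788 (0.673 to 0.922) of senescent and 0.725 (0.621 to 0.845) of young, and the combined library was 0.849 (0.735 to 0.981) of young. Top2a, the topoisomerase that untangles sister chromatids, had 803, 700, 579 and 752 counts. The young control was the highest, at 0.880 (0.794 to 0.975) for senescent and 0.810 (0.727 to 0.903) for TSA over young, and the combined library was 1.22 (1.10 to 1.37) of TSA. Its ratio of 1.13 (1.02 to 1.25) in the combined library over the senescent control ended under scaling by total counts. Together these genes stood at 0.894 (0.823 to 0.970) for senescent over young, 0.873 (0.798 to 0.956) for TSA over senescent and 1.21 (1.10 to 1.32) for the combined library over TSA.

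The regulators that act on CHR promoters were low in counts. Foxm1 had 61, 50, 55 and 49 counts and Mybl2 (B-MYB) had 90, 85, 72 and 93, and neither was called in any comparison. Cdkn1a (p21, the CDK inhibitor that leads to repression of these promoters) had 2625, 2583, 2236 and 2130 counts. It was not called between the controls and was lower in the combined library, at 0.866 (0.817 to 0.917) of senescent. In the list of 20 transcription factors and MuvB subunits of the cell cycle, 6 were higher and 0 lower in the combined library than with TSA, against 16.4% and 17.4% of all genes. Their median was 0.26 on the log2 scale, with quartiles of -0.04 and 0.33, and that of all genes was 0.00. They included E2f1 at 1.38 (1.10 to 1.75), Nfya, a subunit of NF-Y, at 1.45 (1.06 to 1.99) and Nfyb at 1.23 (1.05 to 1.43). With TSA against the senescent control 1 of the 20 was higher and 4 were lower, against 16.0% and 14.5% of all genes, among them E2f3 at 0.681 (0.559 to 0.827).

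Other mitosis genes, a list of 55 with enough counts, held calls in both directions in each of these comparisons. In that list 9 were higher and 7 lower for senescent over young, 5 and 6 for TSA over senescent, 6 and 4 for the combined library over senescent, and 6 and 3 for the combined library over TSA, with medians of 0.03, 0.01, 0.05 and 0.04. In these comparisons 16.4% to 29.1% of the list were called, in each below the share of all genes (34.9%, 30.5%, 31.7% and 33.7%). Kif14, a kinesin of cytokinesis, was 0.566 (0.411 to 0.773) in senescent over young and 2.20 (1.496 to 3.29) in the combined library over TSA. Aspm, a spindle pole protein, was 0.612 (0.414 to 0.895) and Gtse1 0.612 (0.440 to 0.844) with TSA over senescent, while Racgap1, the partner of Kif23 in centralspindlin, was 1.36 (1.11 to 1.66) and Cdkn3 1.32 (1.17 to 1.48). Cit (citron kinase, of the midbody) was 0.645 (0.544 to 0.765) in the combined library over TSA.

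Genes of chromosome shape and of the anaphase-promoting complex were also compared. Of 17 condensin and cohesin genes, 6 were higher and 1 was lower in the combined library than with TSA, against 16.4% and 17.4% of all genes, with Smc4, a core condensin subunit, at 1.17 (1.11 to 1.24) and Ncapd2 at 1.54 (1.18 to 2.02). With TSA over senescent 2 were higher and 3 lower, against 16.0% and 14.5% of all genes, among them the condensin subunit Ncapg at 0.590 (0.467 to 0.742). In the combined library 5 were higher and 3 lower than in the senescent control, against 15.9% and 15.8% of all genes. Against the young control 4 were higher and 4 lower there, against 16.5% and 15.3%. Of 15 subunits and enzymes of the anaphase-promoting complex, 4 were higher and 0 lower in the combined library than in the senescent control, against 15.9% and 15.8% of all genes, with Ube2s at 1.36 (1.12 to 1.66). Of the same 15, 3 were higher and 2 lower for senescent over young, against 18.4% and 16.5% of all genes. In the combined library over TSA 4 were higher and 1 was lower, against 16.4% and 17.4%. With TSA over senescent 2 were higher and 2 lower, against 16.0% and 14.5%. There Anapc13 was 1.21 (1.12 to 1.31) and Anapc1, the largest scaffold subunit, 0.685 (0.588 to 0.798).

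Genes of S phase were read separately. Of 31 genes of DNA replication, 7 were higher and 1 was lower with TSA than in the senescent control, against 16.0% and 14.5% of all genes. Their median was 0.14, with quartiles of -0.05 and 0.43, and the 38 mitosis genes had a median of -0.15, with quartiles of -0.25 and 0.05. These ranges overlap, and the difference was not tested. The 55 other mitosis genes had a median of 0.01 in the same comparison, so the low median belongs to the 38 members. Tyms (thymidylate synthase) was 1.60 (1.32 to 1.93), and Pcna, the replication clamp, had 343, 332, 381 and 353 counts and stood at 1.28 (1.10 to 1.48). In the combined library 1 was higher and 6 were lower than with TSA, against 16.4% and 17.4% of all genes, Tyms among them at 0.756 (0.631 to 0.905). Of the 9 cyclins and kinases of G1 and S phase, 3 were higher and 3 lower in senescent over young, against 18.4% and 16.5% of all genes. With TSA over senescent 3 were higher and 1 was lower, against 16.0% and 14.5%. In the combined library over TSA 1 was higher and 3 were lower, against 16.4% and 17.4%. Ccne2 (cyclin E2) was 1.52 (1.19 to 1.95) with TSA over senescent and 0.504 (0.382 to 0.662) in the combined library over TSA. Ccnd1 (cyclin D1), with 10756, 14563, 14605 and 9567 counts, was 1.37 (1.33 to 1.40) for senescent over young and 0.618 (0.602 to 0.634) for the combined library over TSA. Cdk2, Ccnd2 and Cdk4 were lower in senescent over young, and Ccnd2 was also lower with TSA over senescent. Of 11 CDK inhibitors, p53 targets and lamin B1, 3 (27.3%) were higher and 0 lower in the senescent control, against 18.4% and 16.5% of all genes, with Cdkn2b (p15) at 1.30 (1.201 to 1.41), while Lmnb1, whose loss is a sign of senescence, had 402, 362, 320 and 353 counts and was called in no comparison. The plot of list medians sets these groups side by side.

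**Figure D5:**
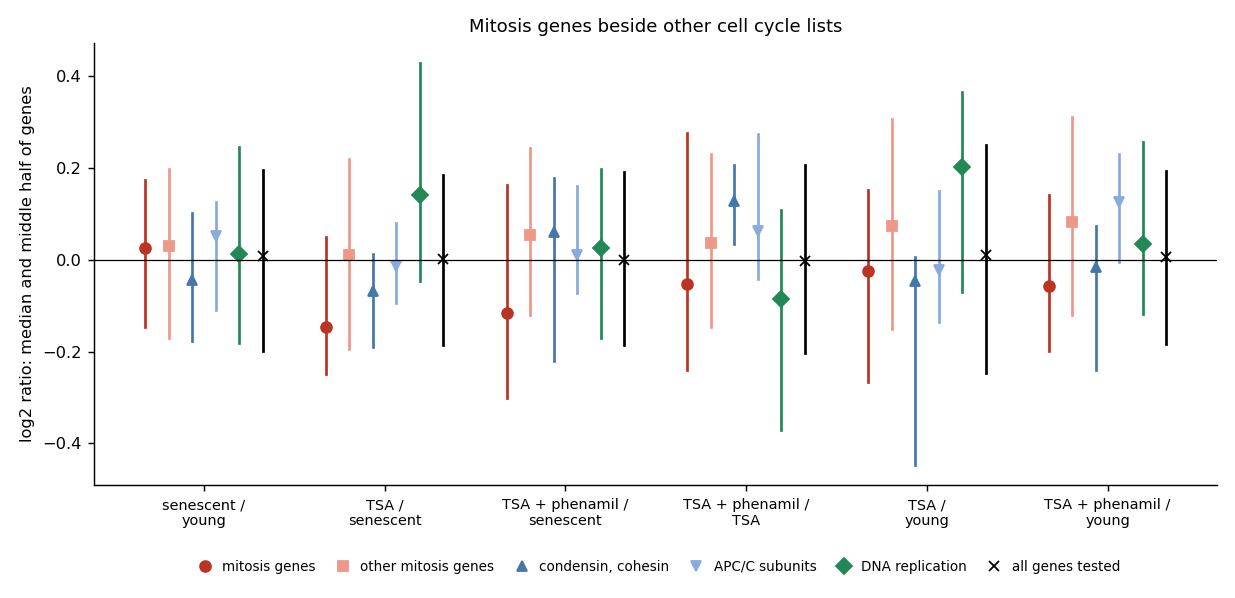
Median log2 ratio (vertical) with bars from the lower to the upper quartile of genes for the 38 mitosis genes and other cell cycle lists in the 6 comparisons (horizontal). In TSA over senescent the 38 mitosis genes have a median of -0.15 and the DNA replication genes 0.14, and their quartile ranges overlap. The 55 other mitosis genes have a median of 0.01 there.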

How the data were processed

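Gene counts were compared between 4 libraries, 1 per condition and all of batch 1 in the labels. Per the labels' protocols, TRIzol RNA went into a QuantSeq 3' mRNA-Seq FWD kit, which reads near the 3' end of each transcript, and reads were single-end of 100 bp. The deposited counts are whole numbers per gene, per the file headers, and the authors' deposited log2 values equalled log2 of the count over 1 factor per library, plus 1, within 0.000545. The build mRatBN7.2 and the tools HTSeq 2.0.2 and STAR 2.7.10b are listed, per the submitters' processing notes; the use of strand, duplicates and molecular identifiers is not given in the sources used here, so intervals cover counting error only.

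Counts were scaled by TMM (edgeR 4.0.16, R 4.3.3), and a gene needed 40 counts, summed over libraries, to be compared. With 1 library per group the quasi-likelihood test has no residual degrees of freedom and could not be fitted, and p-values are not given. Ratios carry exact conditional binomial (Clopper-Pearson) intervals at 95%, and shares exact binomial ones (Python 3.11.15, scipy 1.17.1, numpy 2.4.6, pandas 2.3.3, matplotlib 3.10.9); the code was tested on simulated data. The members and lists were chosen with earlier results of these data known. Counts in every library are printed for members with at least 100 counts that were called in 2 or more of 6 comparisons, or beyond 1.5-fold in any, and up to 3 genes per list, comparison and direction were eligible for naming, with Foxm1, Mybl2, Cdkn1a, Lmnb1 and Pcna; Anln lies outside that rule at 63 counts, and its counts were printed after its values were seen. Alternatives were scaling by total counts, by size factors of DESeq2 1.42.0 or by TMM with genes of mitochondria and ribosomal proteins left out, other filters and call rules, an assumed coefficient of variation and thinning. Overlaps and promoters came from RefSeq tables of GRCr8, a build other than that of the counts.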

Additional observations from a re-analysis of the deposited data

How the results depend on the processing

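No paired analysis was possible because each group holds 1 library. Of the 74 calls among the mitosis genes, 72 remained with DESeq2 size factors and 69 with total counts. With mitochondrial and ribosomal protein genes left out of the scaling 73 remained, and 70 when libraries were thinned to the smallest total. The filter of 200 counts kept members with 67 calls and left their intervals unchanged, so it could not alter those calls. No call of a member changed direction under the other scalings or the thinning. The other filters and call rules keep the same ratios, so they could not reverse a call. The members' median log2 ratio of senescent over young, 0.03, was -0.0041 with total counts, where the median of all genes was -0.02. With the filter of 200 counts, 3 members in place of 5 were higher in senescent over young. With the whole interval required beyond 1.5-fold, 1 member was higher in TSA over senescent, and the other counts in either direction of the 6 comparisons were 0. With a ratio past 1.2-fold alone, 58 of the calls remained, and 11 members in place of 6 were lower in the combined library than in the senescent control. With an assumed coefficient of variation of 0.1, the members higher and lower were 2 and 0 for senescent over young and 2 and 1 for TSA over senescent. They were 2 and 1 for the combined library over senescent and 3 and 2 for it over TSA. Against young they were 2 and 4 for TSA and 0 and 2 for the combined library. This rule took a log-normal interval in place of the exact one. At high counts that interval is wider and makes fewer calls by construction. At few counts it need not be wider, as for Anln in TSA over senescent. As alternatives chosen after seeing the data, TTTGAA alone gave 75.8% of members' promoter windows with a match, and the bases before the start alone gave 78.8% with a CHR. Depth limits the members with few counts: Anln, Cdc25c and Ccnb2 have wide intervals, and smaller differences in them were not detectable.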
